A study of Mus musculus with 8 samples.

Results

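The genes described here encode RNA-binding proteins of the CELF, ELAVL and NOVA families: 5 CELF genes (Celf1, Celf2, Celf4, Celf5 and Celf6), 3 ELAVL genes (Elavl1, Elavl2 and Elavl4) and 2 NOVA genes (Nova1 and Nova2). They were chosen by name and are 10 of the 31053 genes in the count matrices. Levels were measured by single-cell RNA-seq (10x Chromium 3' V3, counting unique molecular identifiers, UMIs) in SN4741, a clonal line from embryonic mouse substantia nigra that carries a temperature-sensitive SV40 large T antigen (tsA58) under a tyrosine hydroxylase promoter. Of the 8 libraries, 4 came from cells grown at 37 °C in 10% serum, the permissive condition, and 4 from cells moved to 39 °C and 0.5% serum at 24 h after passage and kept there for 48 h. Every group carried the T antigen transgene, and temperature and serum changed together, so their parts cannot be told apart. The question was which of these genes changed with the shift, and whether they did so in cells with and without UMIs of Mki67, a marker of proliferating cells.

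CELF proteins bind GU-rich RNA, ELAVL (Hu) proteins bind U-rich and AU-rich elements, and NOVA proteins bind clusters of YCAY. They act on alternative splicing, on the stability of mRNA and on its translation. Elavl1 (HuR) and Celf1 are present in most tissues, whereas Elavl2, Elavl4, Nova1 and Nova2 are best known from neurons, and several CELF genes are most abundant in brain.

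The study's limits on cells left 18351 of 19125 cells, of which 8550 were from 37 °C and 9801 from 39 °C, with 985 to 3494 cells and 17166686 to 29633818 UMIs per library. Median UMIs per cell were 9839 to 15413 at 37 °C and 6676 to 16665 at 39 °C, and median mitochondrial shares were 7.55% to 7.89% and 8.04% to 8.85%. Mki67 UMIs were found in 55.5% of cells at 37 °C and 5.99% at 39 °C, which left only 73 to 190 cells with Mki67 UMIs per library at 39 °C. The labels call the line neural precursor cells. Of 7 markers of neural progenitors, Vim and Nes were abundant. Nes was at 462 CPM (UMIs of a gene per 1000000 UMIs) at 37 °C and 110.1 CPM at 39 °C. Vim was at 5335 and 5188 CPM, and Sox2 at 54.85 and 77.14 CPM, higher at 39 °C. Sox1, Pax6 and Fabp7 were under 1 CPM, and Hes5 had no UMI. Of 8 neuron markers, Dcx had no UMI and Nefl, Snap25 and Syt1 were under 1 CPM, and the summed level of the list was 166 to 195 CPM at 37 °C and 80.6 to 99.0 CPM at 39 °C, with 4 of 4 tested markers lower (30.5% of all genes were). In cells without Mki67 UMIs 2 of the 4 were lower (27.1% of all genes were). In cells with them 2 were lower and 1 higher (18.6% and 14.9% of all genes). Of 7 glial markers, Olig1, Olig2 and Sox10 had no UMI, and the list summed to 3.01 to 3.55 CPM and 4.70 to 5.48 CPM. The 7 mesenchymal markers summed to 1810 to 1882 CPM at 37 °C and 907 to 940.3 CPM at 39 °C. Most of that sum was Col1a1 (1016 and 580.5 CPM) and Col1a2 (670 and 184 CPM). Of 6 tested, 4 were lower and 1, Twist1, was higher, at 59.87 and 84.53 CPM (30.5% and 31.5% of all genes were lower and higher). The 5 immune and endothelial markers summed to 15.4 to 18.6 CPM and 27.2 to 35.4 CPM, with Cdh5 at 0. Proliferation markers (Top2a, Ccnb1, Cdk1 and Birc5) summed to 867 to 974 CPM and 99.2 to 122 CPM. The part of these lists in the results on the RNA-binding proteins was not tested.

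All 10 genes are annotated as protein coding in GRCm38. Celf5 (ENSMUSG00000034818) lies on the minus strand at chr10:81459227-81482709 and Nova2 (ENSMUSG00000030411) on the plus strand at chr7:18925888-18965319. Their upstream sequences are shown because both genes were higher at 39 °C and the stretch just before each gene holds no annotated exon. Capitals mark the GC box, GGGCGG, on either strand (as CCGCCC here, the matches of Celf5 overlapping). The sequences come from RefSeq (GRCm38.p6), 5′ to 3′ on the strand of the gene, and stop 1 base before it; they span chr10:81482710-81482949 (minus strand) and chr7:18925638-18925887 (plus strand).
Celf5: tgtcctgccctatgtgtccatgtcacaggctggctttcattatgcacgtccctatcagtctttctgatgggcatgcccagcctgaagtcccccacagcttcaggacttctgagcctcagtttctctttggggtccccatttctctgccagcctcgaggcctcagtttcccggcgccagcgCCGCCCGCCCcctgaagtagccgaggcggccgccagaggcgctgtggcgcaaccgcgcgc
Nova2: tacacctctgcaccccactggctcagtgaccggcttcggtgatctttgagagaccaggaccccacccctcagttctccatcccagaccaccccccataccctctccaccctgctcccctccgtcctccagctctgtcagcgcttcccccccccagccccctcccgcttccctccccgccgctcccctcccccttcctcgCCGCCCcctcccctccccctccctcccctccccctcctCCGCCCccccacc
Motifs were counted in RefSeq windows of 250 bases before to 50 after a start site, which run past the end of the printed stretches. A GC box was found in 35.6% of 32817 RefSeq windows, GAANNTTC (the core of a heat shock element) in 7.86%, TTTGAA (the cell cycle homology region) in 17.9% and CAGCTG (an E-box) in 16.3%, each searched on both strands. The RefSeq table matched 9 of the 10 genes by symbol, all but Celf4. Celf5 had 5 windows and Nova2 had 1, and only the most upstream window of each gene was read. These windows of Celf5 and Nova2 held 3 and 2 GC boxes, of which 2 each lie in the printed stretches. Neither held GAANNTTC, TTTGAA or CAGCTG. These matches describe letters only.

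At 39 °C, Celf5, Celf4, Elavl2 and Nova2 were higher and Celf2, Elavl1 and Nova1 lower, whereas Celf1 and Celf6 did not pass the test and Elavl4 had no UMI in any library. The test was edgeR's quasi-likelihood test on UMIs summed per library, with Benjamini-Hochberg adjustment over all 15810 genes tested, and a gene passed at an adjusted p under 0.05. Thus 4 of 9 members tested passed as higher and 3 as lower, where 31.5% of all genes passed as higher and 30.5% as lower. The 2 temperatures did not overlap in 6 members (4 higher, 2 lower), against 28.7% of all genes higher and 28.0% lower. Celf5 and Nova1 also passed a log2 size of 1.5, as did 7.05% of all genes. The median log2 fold change of the 9 members tested was 0.56 against 0.02 over all genes, but it is the value of Celf6, which had 14 UMIs in all and did not pass (edgeR adjusted p = 0.602), and members moved both ways.

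Celf5, one of the brain-enriched CELF genes, changed most among the abundant members. Its level at 37 °C was 58.7, 50.3, 51.9 and 49.4 CPM in replicates 1 to 4, and at 39 °C it was 169.9, 181, 172 and 185 CPM. Every library at 39 °C was far above every library at 37 °C, and the means were 52.6 ± 4.20 and 177 ± 7.52 CPM (SD, n = 4 each). The log2 fold change was 1.75 ± 0.06 (SE), or 3.37-fold, with an adjusted p of 2.92e-15 by edgeR. The interval of 95% ran from 1.64 to 1.86.

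Celf4, a CELF gene known for its binding of synaptic mRNAs in neurons, was also higher. It measured 94.7, 82.6, 83.3 and 82.5 CPM at 37 °C and 135.0, 140.7, 143 and 139 CPM at 39 °C. The groups were well apart, and replicate 1 at 37 °C stood above the other libraries of its group. Its log2 fold change was 0.70 ± 0.05 (1.63-fold, edgeR adjusted p = 4.06e-10).

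Celf2 moved the other way. This gene, a splicing regulator of brain, heart and lymphoid cells, measured 96.0, 104, 92.8 and 95.6 CPM at 37 °C and 75.5, 74.2, 74.7 and 77.9 CPM at 39 °C. The libraries at 39 °C lay close together and below all of those at 37 °C. Celf2 fell by 0.36 ± 0.05 on the log2 scale, 1.29-fold lower, with an edgeR adjusted p of 1.30e-06.

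Celf1, which promotes decay of mRNAs with GU-rich elements and acts in splicing, did not pass the test. It measured 109.8, 106, 109 and 106 CPM at 37 °C and 108, 112, 110.1 and 114 CPM at 39 °C, and the groups overlapped. Its log2 fold change was 0.05 (95% interval -0.04 to 0.13, edgeR adjusted p = 0.364). Celf6, a further brain-enriched member, was close to the limit of detection, with 6 UMIs at 37 °C and 8 at 39 °C, and 6 of the latter came from replicate 3.

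**Figure D1:**
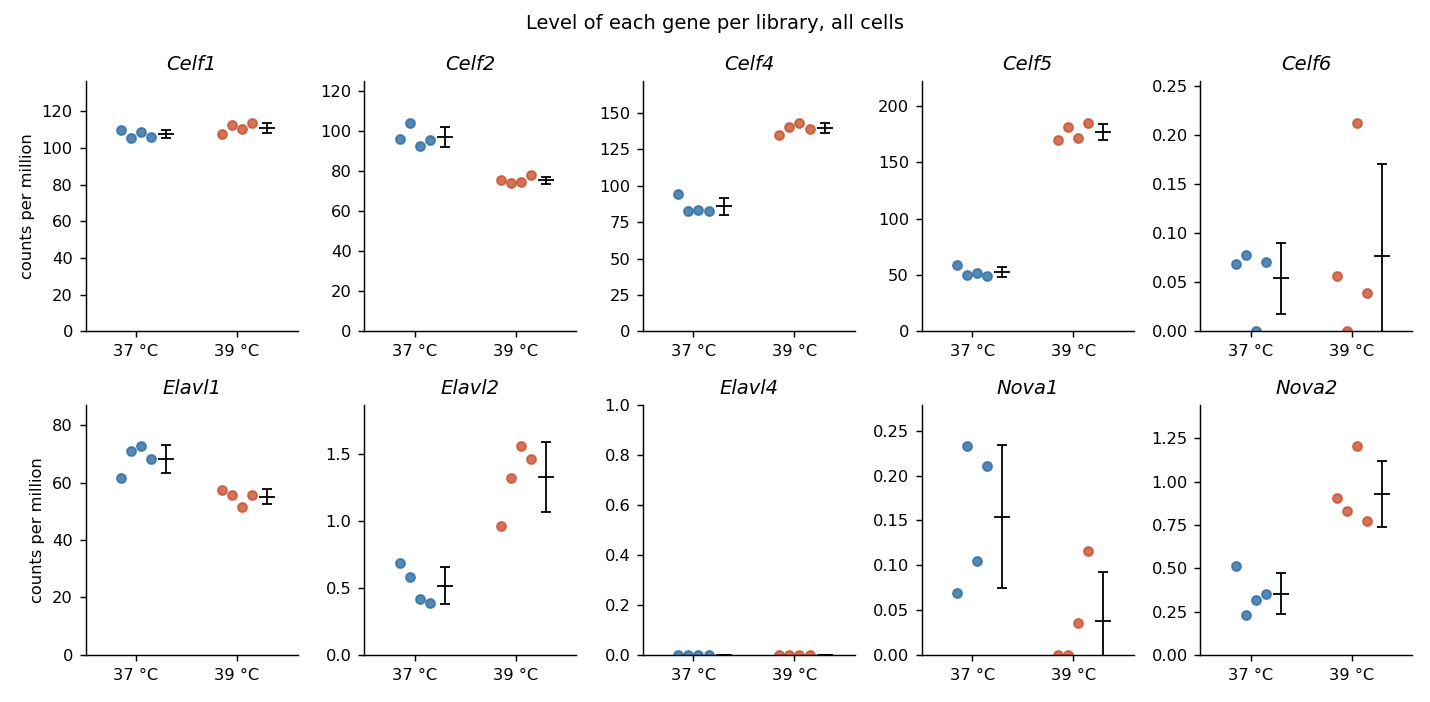
Level of each of the 10 genes in CPM (vertical axis, from 0, its own scale for each gene) in the 4 libraries at 37 °C and the 4 at 39 °C; points are libraries and bars are mean ± SD. Celf5 sits between 49.4 and 58.7 CPM at 37 °C and between 169.9 and 185 CPM at 39 °C, Celf1 overlaps between temperatures, and Elavl4 is at 0 throughout.

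Among the ELAVL genes, Elavl1, the broadly expressed member that stabilises many AU-rich mRNAs, was lower at 39 °C. It measured 61.6, 70.9, 72.6 and 68.3 CPM at 37 °C and 57.5, 55.5, 51.5 and 55.7 CPM at 39 °C. The groups did not overlap, although replicate 1 at 37 °C was near the top of the other group. Elavl1 fell by 0.31 ± 0.05 on the log2 scale (1.24-fold lower, edgeR adjusted p = 4.74e-05).

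Elavl2 (HuB), a neuronal member, was higher at 39 °C but rare in both groups. It had 20, 15, 12 and 11 UMIs in the libraries at 37 °C and 17, 35, 44 and 38 at 39 °C. These gave 0.386 to 0.686 CPM at 37 °C and 0.965 to 1.56 CPM at 39 °C, with no overlap, and the log2 fold change was 1.38 ± 0.23 (edgeR adjusted p = 3.29e-05). Elavl4 (HuD), a marker of neurons, had 0 of 113220605 UMIs at 37 °C and 0 of 97313978 at 39 °C. A count of 0 allows up to 3 UMIs, or 0.0265 and 0.0308 CPM, counting error only.

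The NOVA genes, splicing regulators first studied in neurons, were also rare. Nova2 had 15, 6, 9 and 10 UMIs at 37 °C and 16, 22, 34 and 20 at 39 °C. That is 0.233 to 0.514 CPM against 0.771 to 1.204 CPM, with every library at 39 °C above every library at 37 °C. The log2 fold change was 1.38 ± 0.28, at an adjusted p of 2.21e-04 by edgeR. Nova1 had 2, 6, 3 and 6 UMIs at 37 °C and 0, 0, 1 and 3 at 39 °C, and these groups overlapped. Its log2 fold change, -1.79 ± 0.77 with an edgeR adjusted p of 0.04999, was the weakest call of the 7. The call was lost in 12 of 18 other settings, with adjusted p up to 0.137, including the leave-outs of replicates 2 and 4 at 37 °C (0.126 and 0.118) and of replicates 1, 2 and 3 at 39 °C (0.0917, 0.137 and 0.1003). Nova1 also shares exon sequence on its strand with the gene Gm33869 as annotated in GENCODE M21. What this did to its few UMIs was not tested.

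Detection in single cells depends on depth, which differed between libraries. Cells were therefore thinned to 3000 UMIs each (8335 cells at 37 °C and 9222 at 39 °C) before the cells with a UMI were counted. Celf5 UMIs were found in 13.8% ± 0.978 of cells at 37 °C and in 37.8% ± 1.06 at 39 °C (SD, n = 4 each, two-sided exact permutation p = 0.0286, the smallest that 4 against 4 libraries allow). Without thinning the shares were 40.6% and 70.7%, and cells with a Celf5 UMI held 1.74 and 2.79 of them on average, with a highest value of 13 and 27. Both the share of cells and the number per cell were higher at 39 °C, although the number per cell was not thinned. With few UMIs per cell, the share with a UMI rises with the mean level. It therefore cannot tell more cells with the transcript from more transcript per cell.

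Celf4 was found in 21.95% ± 1.88 and 32.3% ± 1.10 of thinned cells, and the groups did not overlap (exact permutation p = 0.0286). The shares of Celf2 were 23.6% and 19.8%, and those of Elavl1 18.5% and 15.99% (exact permutation p = 0.0286 each). Without thinning these 3 differences had exact permutation p of 0.143, 0.114 and 0.143, and median UMIs per cell varied widely among libraries. Celf1 was found in 27.2% and 27.9% (exact permutation p = 0.286). Elavl2 was found in 12 of the thinned cells at 37 °C and 32 at 39 °C, and Nova2 in 9 and 25. The 10 genes were compared in this way. After Benjamini-Hochberg adjustment over them, the exact permutation p of Celf2, Celf4, Celf5, Elavl1 and Nova2 in thinned cells was 0.0571. None of the 10 thus passed at 0.05. The line has no cell type known to lack these genes against which free RNA could be gauged.

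**Figure D2:**
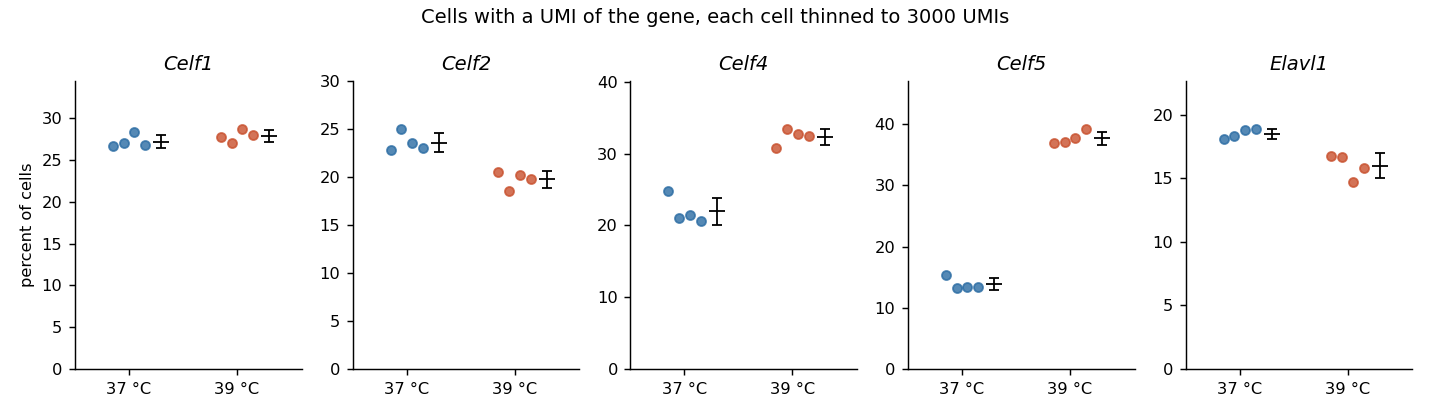
Percent of cells (vertical axis, from 0) with at least 1 UMI of Celf1, Celf2, Celf4, Celf5 or Elavl1 after each cell was thinned to 3000 UMIs, for 4 libraries per temperature; points are libraries and bars mean ± SD. Celf5 goes from 13.8% to 37.8% of cells, and Celf1 stays near 27% to 28%.

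The make-up of the UMIs of the listed CELF genes differed between temperatures. Celf5 supplied 15.3% ± 0.759 of the UMIs of the 5 CELF genes at 37 °C and 35.2% ± 0.748 at 39 °C, with ranges of 14.7% to 16.3% and 34.3% to 35.9% (SD, n = 4 each, exact permutation p = 0.0286). The share of Celf1 went from 31.3% to 22.1% and that of Celf2 from 28.4% to 15.02%, while Celf4 was at 24.99% and 27.8%. The summed level of these 5 genes was 339 ± 10.7 CPM at 37 °C and 509 ± 9.39 CPM at 39 °C. The 3' counts are not divided by length, so no order among genes is read from these shares, only the change of each share between temperatures. A share also depends on the other genes in the sum. That of Celf1 fell although its level did not pass the test (edgeR adjusted p = 0.364). Elavl2 supplied 0.763% ± 0.253 of the UMIs of the 3 listed ELAVL genes at 37 °C and 2.37% ± 0.541 at 39 °C (exact permutation p = 0.0286). Nova2 supplied 68.9% ± 16.4 and 96.0% ± 6.19 of the UMIs of the 2 listed NOVA genes (exact permutation p = 0.0571), from few UMIs. Shares were compared for 3 families, over the listed genes only.

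**Figure D3:**
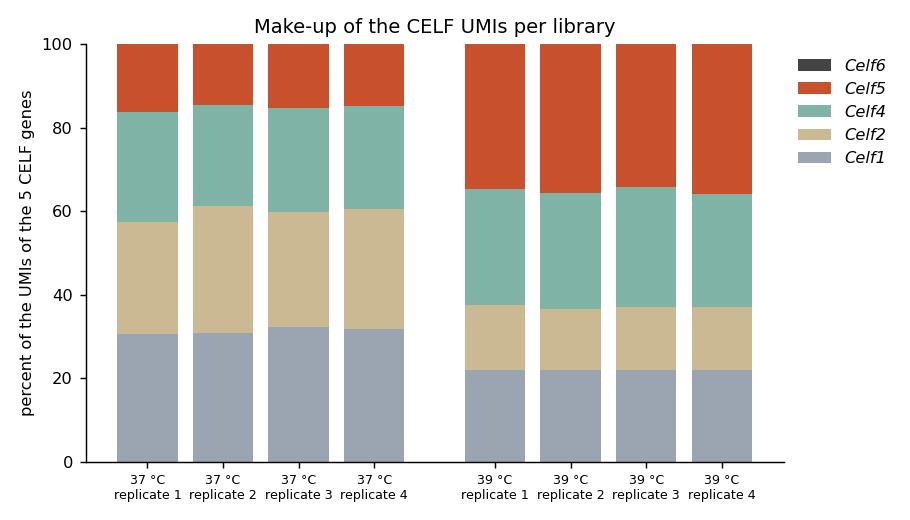
Percent of the UMIs of the 5 CELF genes (vertical axis) that came from each gene, as stacked bars for the 8 libraries. The Celf5 segment takes 14.7% to 16.3% at 37 °C and 34.3% to 35.9% at 39 °C, and Celf6 is too rare to be seen.

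The cells at 39 °C were mostly without Mki67 UMIs, so the temperatures were compared again within each Mki67 class. In cells without Mki67 UMIs, 5 of 9 members tested passed as higher (Celf1, Celf4, Celf5, Elavl2 and Nova2) and 2 as lower (Celf2 and Elavl1), where 29.7% of 15040 genes passed as higher and 27.1% as lower. Celf5 rose by 1.72 ± 0.07 on the log2 scale, from 63.9, 54.3, 52.3 and 48.9 CPM to 173, 186, 177 and 189 CPM. Celf4 rose by 0.74 ± 0.06, Elavl2 by 1.84 ± 0.34 and Nova2 by 1.09 ± 0.33, and Celf2 fell by 0.33 ± 0.05 (edgeR adjusted p between 3.23e-10 and 0.00768 for these 4). Elavl2 and Nova2 were rare here too: Elavl2 had 16 UMIs at 37 °C and 124 at 39 °C, and Nova2 had 19 and 87. The Nova2 call was lost with cells thinned to 5000 UMIs (1.34, adjusted p = 0.0736). Elavl1 fell by 0.20 ± 0.05 (edgeR adjusted p = 0.00328). The Celf1 difference was small, 0.14 ± 0.05 (edgeR adjusted p = 0.0199), and the call was lost without replicate 2 at 37 °C (0.0803) or without replicate 2 or 4 at 39 °C (0.0567 and 0.0652), and with cells thinned to 5000 UMIs (0.109). Proliferation markers still summed to 157 to 208 CPM in these cells at 37 °C and to 49.2 to 58.6 CPM at 39 °C, and their part in the result was not tested.

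In cells with Mki67 UMIs, 2 of 8 members tested passed as higher and 1 as lower, where 14.9% of 14404 genes passed as higher and 18.6% as lower. Of the genes that passed there, 44.6% were higher, or 59.0% when scaled by library totals only. Celf5 was at 56.3, 48.4, 52.9 and 50.1 CPM at 37 °C and 151, 146, 131 and 159 CPM at 39 °C, so the groups were again far apart. The log2 fold change of Celf5 was 1.49 ± 0.07 (edgeR adjusted p = 4.76e-16) and that of Celf4 was 0.57 ± 0.07 (edgeR adjusted p = 1.50e-07). Celf2 fell by 0.25 ± 0.08 (edgeR adjusted p = 0.00897), a call lost when libraries were scaled by their totals only (-0.16, adjusted p = 0.105) or cells thinned to 5000 UMIs (-0.33, adjusted p = 0.0814). Elavl1 was at -0.12 (95% interval -0.29 to 0.06, edgeR adjusted p = 0.336) and Celf1 at 0.05 (edgeR adjusted p = 0.653). Elavl2 had 42 UMIs in these cells at 37 °C and 10 at 39 °C, and Nova2 21 and 5, and neither passed. Proliferation markers summed to 1345 to 1432 CPM at 37 °C and 687 to 980 CPM at 39 °C within this class.

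**Figure D4:**
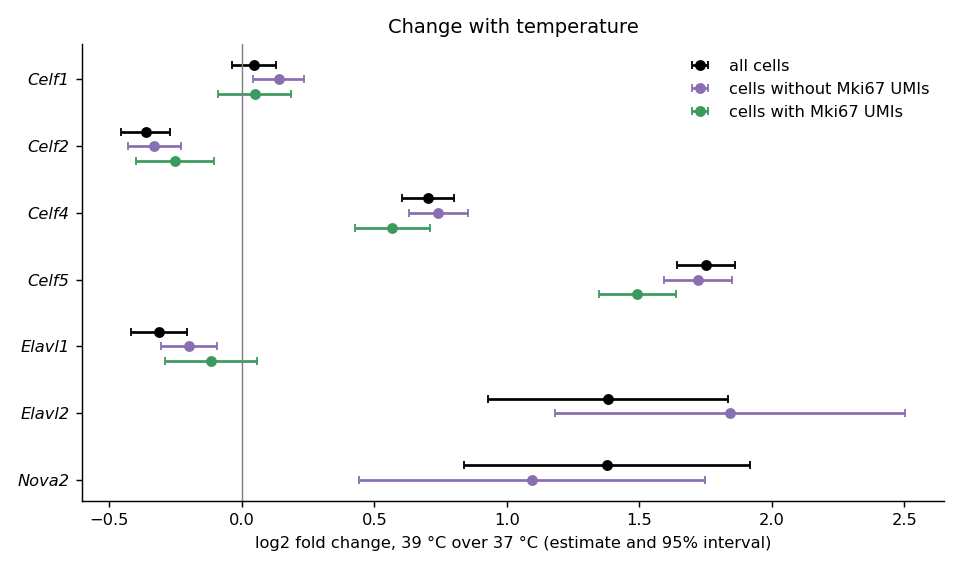
Log2 fold change of 39 °C over 37 °C (horizontal axis) with 95% intervals for 7 genes in all cells, in cells without and in cells with Mki67 UMIs (edgeR, 4 libraries per temperature; Elavl2 and Nova2 are not drawn in cells with Mki67 UMIs, where they had few UMIs). Celf5 lies between 1.49 and 1.75 and Celf4 between 0.57 and 0.74 in the 3 sets, and Celf2 lies below 0 in each.

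Cells with and without Mki67 UMIs were then compared within libraries, with the library as a block. Cells with Mki67 UMIs were also deeper: median UMIs were 11448 to 17162 with and 8296 to 13058.5 without Mki67 UMIs at 37 °C, and 8385.5 to 17890 and 6557 to 16585.5 at 39 °C. Elavl1 was higher in cells with Mki67 UMIs at both temperatures. At 37 °C it was at 57.7, 65.1, 65.3 and 63.9 CPM without and 66.2, 75.3, 78.5 and 72.5 CPM with Mki67 UMIs, higher in 4 of 4 libraries. At 39 °C it was at 56.9, 54.6, 51.3 and 55.1 CPM without and 70.1, 74.5, 56.1 and 68.6 CPM with them, again higher in 4 of 4, though the classes overlapped through replicate 3. The log2 differences were 0.21 ± 0.04 at 37 °C and 0.30 ± 0.07 at 39 °C (edgeR adjusted p = 6.49e-06 and 5.81e-04). Under 20 other settings, among them cells thinned to 5000 UMIs, the adjusted p reached 0.0371 and 0.0262. That thinning also left out shallower cells and drew the Mki67 classes anew from the thinned counts.

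Celf1 was higher in cells with Mki67 UMIs at 37 °C, by 0.16 ± 0.04 and in 4 of 4 libraries (edgeR adjusted p = 1.59e-04), and this call was lost under upper quartile scaling (0.07, adjusted p = 0.0974) and with cells thinned to 5000 UMIs (0.10, adjusted p = 0.138). Thus 2 of 8 members tested passed as higher at 37 °C and 0 as lower, where 19.8% and 15.3% of 14744 genes did. Celf2, at 0.07 (edgeR adjusted p = 0.122), passed as higher with no cell limits (0.12, adjusted p = 0.00616), no upper limit on genes (0.11, adjusted p = 0.00753) and a threshold of 2 Mki67 UMIs (0.09, adjusted p = 0.0396). The split of all genes moved with scaling, from 56.4% of passing genes higher to 44.2% by library totals and 32.9% by upper quartiles.

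At 39 °C, 1 of 8 members passed as higher (Elavl1) and 1 as lower (Celf5), where 13.1% and 14.9% of genes did. The share of passing genes that were higher was 46.8%, or 58.0% by library totals. Celf5 was at 173, 186, 176 and 189 CPM without and 149, 145, 130.3 and 158 CPM with Mki67 UMIs, lower in 4 of 4 libraries. It fell by 0.32 ± 0.05 on the log2 scale (edgeR adjusted p = 2.85e-08, and at most 0.0156 under 20 other settings). At 37 °C it was at 64.3, 54.8, 52.5 and 49.1 CPM without and 56.4, 48.4, 52.8 and 50.7 CPM with them, lower in 2 of 4 libraries, and the difference of -0.08 did not pass (edgeR adjusted p = 0.164). It passed as lower by library totals (-0.12, adjusted p = 0.0238) and upper quartiles (-0.16, adjusted p = 0.00174), and was 0.08 with cells thinned to 5000 UMIs (adjusted p = 0.425). Celf4 at 39 °C was at 137 to 145 CPM without and 125 to 133 CPM with Mki67 UMIs (-0.13, edgeR adjusted p = 0.0564), and passed as lower under upper quartiles, no cell limits or no upper limit on genes (adjusted p of 0.0202 to 0.0318). Celf2 was at 74.1 to 78.1 CPM without and 80.1 to 90.3 CPM with them, higher in 4 of 4 libraries with no overlap. Its difference of 0.15 did not pass (edgeR adjusted p = 0.0892) but did under RLE scaling, library totals or edgeR's own filter (0.17 to 0.20, adjusted p of 0.0158 to 0.0368).

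The difference by Mki67 status was itself compared between temperatures. For Celf5 it was lower at 39 °C by 0.24 ± 0.07 on the log2 scale (edgeR adjusted p = 0.00746), and it was the 1 member of 8 that passed, where 7.83% of genes passed as lower and 5.45% as higher. The sign held in 20 other settings but the call was lost in 8 of them. These were RLE scaling (0.0526), library totals (0.170), upper quartiles (0.0988), another low-count filter (0.0504), DESeq2 (0.157), no library block (0.203), and the fits without replicate 4 at 37 °C (0.0591) or replicate 3 at 39 °C (0.0645). The share of passing genes that were higher was 41.0%, 58.2% under RLE scaling, 65.6% by upper quartiles and 71.8% by library totals. For Celf4 the value was -0.18 (edgeR adjusted p = 0.0511), which passed with no cell limits, at least 2 Mki67 UMIs or without replicate 3 at 37 °C (adjusted p of 0.0211 to 0.0375), and for Celf1, Celf2 and Elavl1 the adjusted p was between 0.440 and 0.626.

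**Figure D5:**
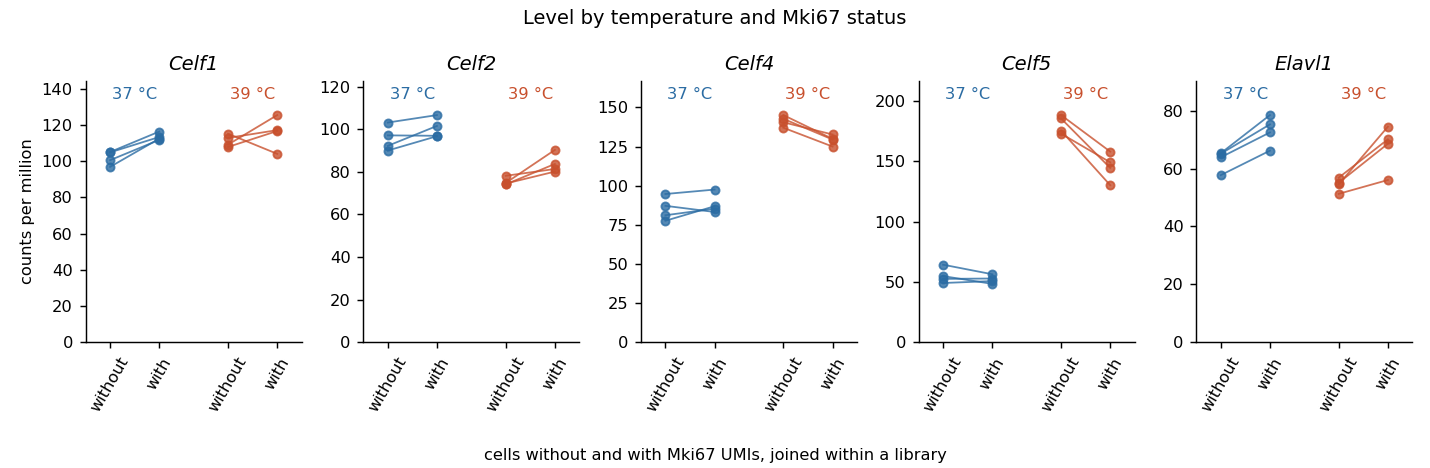
Level in CPM (vertical axis, from 0) of 5 genes in cells without and with Mki67 UMIs at 37 °C and 39 °C, with lines that join the values of 1 library. The lines of Elavl1 go up in 4 of 4 libraries at each temperature, and those of Celf5 go down in 4 of 4 libraries at 39 °C and in 2 of 4 at 37 °C.

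Of 30 other RNA-binding proteins of splicing and AU-rich elements, 28 were tested in all cells, and 10 were higher, 11 lower and 7 did not pass at 39 °C (median log2 fold change 0.02). Over all genes 31.5% were higher and 30.5% lower, so these counts do not set the list apart. The genes of the ZFP36 family, which promote decay of AU-rich mRNAs, were higher: Zfp36l1 by 1.05 ± 0.06, Zfp36l2 by 0.64 ± 0.05 and Zfp36 by 0.61 ± 0.13, the last with overlapping groups. Msi2, a translational regulator of stem and progenitor cells, rose by 0.49 ± 0.06 (edgeR adjusted p between 6.57e-12 and 4.15e-04 for these 4). The largest falls among genes at 10 CPM or more were those of Syncrip (-0.62 ± 0.04), Hnrnpd (-0.57 ± 0.05), which binds AU-rich elements as AUF1, Tial1 (-0.50 ± 0.05) and Khdrbs1 (-0.41 ± 0.04), a splicing factor also called Sam68 (edgeR adjusted p between 3.88e-10 and 8.70e-08). Rbfox1 and Khdrbs2 were too rare to test. Some of these differences were smaller within the Mki67 classes. Without and with Mki67 UMIs, Zfp36 was at 0.29 and 0.23 and passed in neither (edgeR adjusted p = 0.0554 and 0.576), and Msi2 was at 0.21 and 0.28 and passed only without them (0.0161 and 0.169). With Mki67 UMIs, Hnrnpd (-0.12, adjusted p = 0.195) and Tial1 (-0.19, adjusted p = 0.118) did not pass, while Zfp36l1, Zfp36l2, Syncrip and Khdrbs1 passed in both classes.

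As a description, the genes whose levels followed each abundant member most closely were ranked by Pearson r of log2(CPM + 1) over the 16 sums of library by Mki67 status, among 6391 genes. These sums share libraries and fall into 2 temperatures and 2 Mki67 classes, and r carries no test. For Celf5 they were 1700007K13Rik (0.995), Polk (0.992) and Trim11 (0.991), and for Celf4 Mdm4 (0.984), Ttf1 (0.984) and Tmem63b (0.983). The highest r was 0.969 for Celf2 (Rdx), 0.891 for Elavl1 (Hcfc1) and 0.811 for Celf1 (Atp13a3).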

How the data were processed

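Single-cell RNA-seq of SN4741 cells was analysed in 8 libraries, grouped by the temperature in the sample titles. Per the labels and the study's methods, the authors aligned reads to the mouse genome (mm10) with Cell Ranger 3.0.1 and deposited raw UMI counts per gene and cell with no normalization. As in the study, a cell needed 200 to 6000 genes and at most 15% mitochondrial UMIs. These limits left 18351 cells, with 17166686 to 29633818 UMIs per library. No doublet caller was run. Libraries shared at most 5 barcodes, and no library was a copy of another.

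Counts were summed per library, or per library and Mki67 status (at least 1 UMI against 0, with Mki67 left out of the features). Tested genes averaged 1 count or more per sum. The test was edgeR 4.0.16 (R 4.3.3; TMM factors, quasi-likelihood), adjusted over all genes tested. SE was derived from the fold change and its F statistic. Mki67 status was fitted with the library as a block. CPM use TMM-scaled library sizes, except family sums and markers, which use plain totals. Shares were compared with exact permutation tests over 70 assignments (SciPy 1.17.1). The labels do not say that replicates were separate cultures, so p-values measure the spread between these libraries. Intervals and limits of counts cover counting error only.

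The members and lists were chosen with earlier results of these data known. Every listed member is accounted for. Of the other RNA-binding proteins, up to 4 in each direction with the largest change were named among those at 10 CPM or more in the higher group, and for each member at 20 CPM or more the 3 genes with the highest r were ranked. Fitted values were printed for members with a mean of 10 or more counts per sum, a rule set after their values were seen, and for Nova1 in all cells. Counts were simulated from these libraries with 200 of 15810 genes changed, balanced in direction and drawn from genes with a mean of at least 20 counts. The test for all cells recovered 99 of 100 genes changed by 1 on the log2 scale and 100 of 100 changed by 2. There were 12 false calls among the unchanged genes. Like simulations recovered 100 and 100 of 100 for temperature in cells without Mki67 UMIs, with 9 false calls. In cells with Mki67 UMIs they recovered 92 and 98, with 6 false calls. For Mki67 status at 39 °C they recovered 89 and 100, with 14 false calls. The simulations do not cover rarer genes such as Nova2, Nova1 and Celf6, and far more genes passed in the data. Promoter windows and motif matches come from RefSeq (GRCm38.p6), and gene positions from GENCODE M21. Other scaling factors, filters, DESeq2 1.42.0, cell limits, Mki67 thresholds, thinning and left-out libraries were tried as alternatives.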

Additional observations from a re-analysis of the deposited data

Results flagged for a closer look

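Of 78 groups of 4 libraries, 7 had a library that stood apart from the other 3, by the gap to its nearest neighbour relative to the range of the group, and chance gives about 1 in 20 groups. Celf4 in all cells was at 94.7 CPM in replicate 1 at 37 °C, above the other 3 libraries of its group, and its log2 fold change was 0.67 to 0.73 under 19 other settings. Replicate 1 at 37 °C also had the highest share of thinned cells with a Celf5 UMI in its group, 15.3%. Celf1 UMIs were found in 28.3% of thinned cells of replicate 3 at 37 °C. The other 4 rest on few UMIs. Celf6 was at 0.0 CPM in replicate 3 at 37 °C, where the other 3 libraries had 2 UMIs each. Nova2 in cells without Mki67 UMIs was at 1.28 CPM in replicate 3 at 39 °C, and the share of thinned cells with a Nova2 UMI was 0.414% in replicate 1 at 39 °C. A Nova1 UMI was found in 0.0759% of thinned cells of replicate 4 at 37 °C.

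The difference of Celf5 by Mki67 status was not the same at both temperatures by the test of that difference itself (-0.24 on the log2 scale, edgeR adjusted p = 0.00746), a call that was lost in 8 of 20 other settings.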

How the results depend on the processing

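In all cells, the calls for Celf2, Celf4, Celf5, Elavl1, Elavl2 and Nova2 held under each of the 19 other settings, and the log2 fold change of Celf5 lay between 1.72 and 1.82. The Nova1 call was lost in 12. With the replicate number as a block, 4 members were higher and 3 lower in all cells, 5 and 2 in cells without and 2 and 1 in cells with Mki67 UMIs, as without it. Without the block, 31.5% of all genes were higher and 30.5% lower in all cells. These shares were 29.7% and 27.1% without and 14.9% and 18.6% with Mki67 UMIs. The shares of all genes that moved most with the setting are given below. Whether the numbers pair the libraries is not known from the labels. Over 10880 genes the correlations of same-numbered libraries were -0.11, -0.09, -0.08 and 0.22. Those of differently numbered libraries ran from -0.26 to 0.25, and so few values cannot decide it. With cells thinned to 5000 UMIs, 3 members were higher in cells without Mki67 UMIs, 0 were lower in cells with Mki67 UMIs (0 also by library totals), and 1 was higher by Mki67 status at 37 °C (1 also by upper quartiles, where 1, Celf5, was lower, as by library totals). At 39 °C, 2 (Elavl1 and Celf2) were higher in cells with Mki67 UMIs under RLE scaling, library totals or edgeR's own filter, and 2 (Celf5 and Celf4) were lower under upper quartiles, no cell limits or no upper limit on genes. Of the difference by status between temperatures, 0 members passed as lower under RLE, library totals, upper quartiles, edgeR's own filter, DESeq2 or no library block, 2 with no cell limits or at least 2 Mki67 UMIs, and 0 to 2 with 1 library left out. Over all genes, the share that passed as lower in that difference was 7.83%, against 5.09%, 3.58%, 4.21%, 4.78%, 3.36%, 3.23% and 3.26% under RLE, library totals, upper quartiles, no filter, DESeq2, no library block and thinning, and as higher 5.45% against 9.14% by library totals and 3.05% with no block. Thinning gave 7.30% higher and 10.1% lower by temperature with Mki67 UMIs, and 8.32% and 8.94% by status at 39 °C. By status at 37 °C, 12.5%, 12.4% and 12.1% were higher under upper quartiles, DESeq2 and thinning, and 25.5% lower under upper quartiles.

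Signs turned only where the value did not pass the test. By temperature with Mki67 UMIs, Celf1 was -0.0084 with no upper limit on genes and Elavl1 0.012 after thinning. By status at 37 °C, Celf2 was -0.010 under upper quartiles and -0.13 after thinning, Celf4 -0.032 under upper quartiles and Celf5 0.083 after thinning. At 39 °C, Celf2 was -0.092 after thinning, and Elavl2 was 0.019 under RLE, 0.037 by totals, 0.016 with edgeR's own filter, 0.11 with at most 10% mitochondrial UMIs, and -0.74 to 0.31 with 1 library left out (-0.01 with all). In the difference between temperatures, Celf1 was 0.00027 by totals and 0.089 after thinning. The share of cells with a Celf1 UMI differed by -6.51 points without thinning. The causes were not tested. Depth limits Celf6, Elavl2, Nova1 and Nova2, above all in the 73 to 190 cells with Mki67 UMIs per library at 39 °C.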

Other observations

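In cells without Mki67 UMIs, 10 of 27 other RNA-binding proteins tested were higher and 7 lower at 39 °C (29.7% and 27.1% of all genes), and in cells with Mki67 UMIs 4 of 26 were higher and 4 lower (14.9% and 18.6% of all genes). By Mki67 status, 10 of 27 were higher and 4 lower at 37 °C (19.8% and 15.3% of all genes), and 8 higher and 7 lower at 39 °C (13.1% and 14.9%), by edgeR with adjustment over all genes. The summed level of the listed ELAVL genes was 64.2 to 77.5 CPM over the libraries at 37 °C and 60.2 to 77.5 CPM at 39 °C in cells with Mki67 UMIs, and 57.2 to 66.2 and 52.8 to 58.7 CPM in cells without them. The listed CELF genes summed to 329.5 to 357 and 478 to 516 CPM with Mki67 UMIs, and to 325 to 349 and 500.0 to 524 CPM without them. Chosen after the values were seen, Khdrbs3 fell in all cells from a mean of 2.17 ± 0.196 to 0.905 ± 0.244 CPM (edgeR adjusted p = 6.50e-06).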
